A study of Homo sapiens with 24 samples.

Results

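MYC, its upstream neighbour CASC11 and its downstream neighbour PVT1 were examined in the peak lists of 3 subunits of the SWI/SNF chromatin remodelling complex, together with the sequence around them on chromosome 8 (126.5 to 129.0 Mb, hg38). Members were chosen by the nearest transcription start site (TSS) that the lists give for a peak, or by position in this window of 2.5 Mb. This took 160 of 80150 peaks, namely 107 of 51504 for BRG1, 41 of 22157 for BRM and 12 of 6489 for SNF5. MYC, CASC11 and PVT1 were named by 73 of them, all inside the window. Position and names chose the peaks, and the locus was picked with the width and overlap of its peaks known, so those values are a description and are not tested.

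The question of the study was if the complex is still found on chromatin beside SCHLAP1, a noncoding transcript raised in aggressive prostate cancer. Its 24 samples of RWPE1, a benign human prostate epithelial line immortalised with a papillomavirus, fall into 12 groups of 2. BRG1 SCHLAP1, BRM SCHLAP1 and SNF5 SCHLAP1, the groups used here, share a lentiviral SCHLAP1 construct, blasticidin selection at 2.5 ug/mL, 30 min of fixation in 0.3% formaldehyde and chromatin cut with MNase, a nuclease that digests DNA between nucleosomes. Each group has 1 list without read counts or scores, so no value has a replicate spread, the depth is unknown, and a site without a peak is not shown to lack the protein. The subunits were profiled in SCHLAP1 cells only, so no effect of SCHLAP1 can be read from these lists. Of 10 markers of basal prostate epithelium, BRG1 peaks named 9, BRM peaks 8 and SNF5 peaks 3. The counts were 4, 3 and 0 of 8 for luminal, 3, 0 and 0 of 5 for blood and 0, 0 and 0 of 5 for stromal markers. Over all RefSeq protein-coding genes, BRG1 peaks named 63.4%, BRM peaks 49.5% and SNF5 peaks 19.6%, so the luminal counts, and the BRG1 count for blood markers, were near or below that background.

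MYC encodes a transcription factor of the basic helix-loop-helix leucine zipper family that binds DNA as a partner of MAX and drives ribosome production, metabolism and cell division. It lies in a wide stretch with few other protein-coding genes. Enhancers far from the gene, on both sides, are known to act on it in different tissues, and risk of prostate and other cancers maps to this stretch. PVT1 is a long noncoding RNA gene whose promoter is known from other cells to compete with that of MYC for enhancers, and CASC11 is a noncoding RNA gene read away from MYC. SWI/SNF moves nucleosomes at promoters and enhancers with BRG1 or BRM as its motor, and SNF5 is a core subunit of its canonical forms. In the window RefSeq lists 3 protein-coding genes (LRATD2, POU5F1B and MYC), 19 long noncoding RNA genes and 5 microRNA genes, MIR1204 to MIR1208.

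The widest BRG1 and BRM peaks of the window covered the start of MYC, and its widest SNF5 peak lay inside the gene. The BRG1 peak ran over 6691 bp (127733750 to 127740440), from 1684 bp before the RefSeq start of MYC (127735434) to 5006 bp after it. By width it ranked 12 of 51504 BRG1 peaks and 2 of the 1794 on chromosome 8. The BRM peak inside it ran over 5062 bp, from 718 bp before to 4343 bp after the start, and ranked 6 of 22157. These widths were 10 and 9.25 times the medians of their lists (667 and 547 bp).

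SNF5 formed 4 separate peaks inside the BRG1 peak. The narrowest, 151 bp, lay before the RefSeq start, from 556 to 406 bp upstream. The next, 677 bp wide, lay 285 to 961 bp after the start, and one of 277 bp followed at 1192 to 1468 bp. The last was the widest, with 1103 bp at 1993 to 3095 bp, and ranked 7 of 6489, at 5.2 times the list's median of 212 bp. It was annotated as intron, and the other 3 as promoter. SNF5 therefore had no peak across the RefSeq start itself, while the BRG1 and BRM peaks covered it. Of the 4934 BRG1 peaks that met any SNF5 peak, 3909 met 1 and 54 (1.09%) met at least 4. The window had 2 of these 54, at MYC and at LRATD2. A wider BRG1 peak has room for more SNF5 peaks, and BRG1 peaks of like width were not compared.

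**Figure D1:**
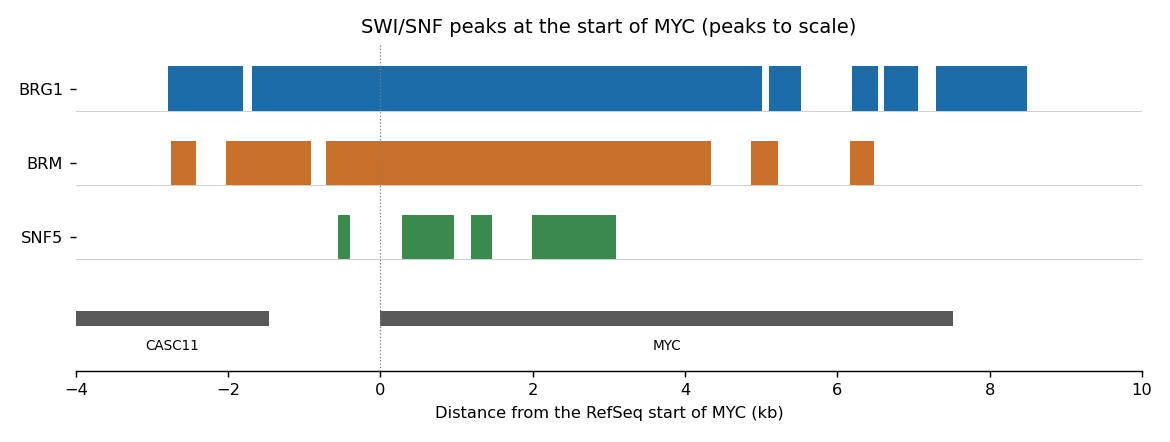
Peaks of BRG1, BRM and SNF5 (rows) by distance in kb from the RefSeq start of MYC (dotted line), drawn to scale, with the RefSeq spans of CASC11 and MYC below. The BRG1 peak of 6691 bp and the BRM peak of 5062 bp cover the start, and 4 SNF5 peaks of 151 to 1103 bp lie on either side of it.

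For most peaks named for MYC, the nearest start in the deposited annotation lay downstream of the RefSeq start. Counted from the middle of a peak, 12 of the 14 peaks named for MYC gave 1 shared start at 127736596, which is 1162 bp after the RefSeq start. The other two, the SNF5 peaks of 151 and 677 bp, were placed 478 and 9 bp from different starts. The shared start lies between the SNF5 peaks of 677 and 277 bp. Which start is used in these cells cannot be read from peak lists.

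MYC was named by 7 BRG1, 3 BRM and 4 SNF5 peaks in all. A BRG1 peak of 419 bp in an exon followed the wide peak after a gap of 99 bp. Then came peaks of 347, 448 and 1193 bp, and a pair of 387 and 530 bp lay 24.6 to 25.6 kb from the start. Of the 5 BRG1 peaks annotated as distal, 3 lay wholly or partly inside the RefSeq span of MYC, which ends at 127742951. BRM had narrow peaks of 352 bp (exon) and 318 bp (distal) there. Widths of the 6 smaller BRG1 peaks were thus between 347 and 1193 bp, and no SNF5 peak named for MYC lay beyond 3095 bp after the start. BRM met 3 of the 7 BRG1 peaks named for MYC and SNF5 met 1. Over all BRG1 peaks 35.7% met BRM and 9.58% met SNF5.

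CASC11 begins close to MYC on its upstream side, and SWI/SNF peaks ran almost without a break from one gene to the other. The RefSeq end of CASC11 nearest MYC (127733967) lies 1467 bp before the MYC start, and the 11 peaks named for CASC11 gave a shared start at 127733964. A BRG1 promoter peak of 983 bp (127732648 to 127733630) was separated from the wide MYC peak by 119 bp. The wide MYC peak itself covered the CASC11 start. A BRM peak of 1112 bp (127733411 to 127734522) was centred on the CASC11 start, at a distance of 0 bp, and bridged the gap between the BRG1 peaks. A second BRM peak of 338 bp lay in the intron, 1115 bp from the start. No SNF5 peak named CASC11. From the first CASC11 peak to the last MYC peak of this group, 6 BRG1 peaks covered 89.4% of 11.3 kb, and 5 BRM and 4 SNF5 peaks fell in it.

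The other 7 BRG1 peaks named for CASC11, 6 distal and 1 in an exon, lay farther upstream. A group of 5, of 428, 669, 719, 2053 and 1284 bp, stood 64.0 to 74.4 kb before the MYC start. The peak of 2053 bp (127667708 to 127669760) held a BRM peak of 1394 bp, the widest BRM peak outside promoters in the window. It had no SNF5 peak. Peaks of 813 bp (distal) and 572 bp (exon) lay alone, at 110 and 48.2 kb. In all, CASC11 was named by 8 BRG1, 3 BRM and 0 SNF5 peaks, and 1 of the 8 BRG1 peaks touched its RefSeq span.

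PVT1 carried more BRG1 and BRM peaks, but not SNF5 peaks, than any other name in the window. It was named by 30 BRG1 peaks (331 to 4548 bp, median 637), 16 BRM peaks (310 to 1724 bp, median 589) and 2 SNF5 peaks (157 and 228 bp). All of them were annotated as intron but 2 BRG1, 3 BRM and 1 SNF5 peak, which were annotated as promoter. By number of peaks it ranked 10 among 21366 names in the BRG1 list and 14 among 13498 in the BRM list, where the median name had 2 and 1 peaks. With peaks named for PVT1_3, TMEM75 and MIR1205 included, 36 BRG1, 17 BRM and 2 SNF5 peaks touched its RefSeq span of 307 kb. Among 1252 other RefSeq protein-coding or long noncoding RNA genes of 205 to 459 kb, the median was 2 BRG1, 1 BRM and 0 SNF5 peaks (quartiles 1 to 6, 0 to 2 and 0 to 0). At least as many peaks touched 3 of those genes for BRG1, 5 for BRM and 61 for SNF5. This set of genes was chosen after seeing the data.

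The promoter of PVT1, 59.1 kb after the MYC start, had BRG1 and BRM but no SNF5 peak. BRG1 formed peaks of 685 and 2422 bp there, with 226 bp between them, and the RefSeq start (127794524) lay in that gap. A BRM peak of 692 bp (127794040 to 127794731) covered the start, and one of 1724 bp lay inside the wider BRG1 peak. That BRG1 peak also covered MIR1204, a microRNA gene of the PVT1 transcript. Together with 7 further peaks downstream they formed a group of 9 BRG1 peaks over 17.2 kb, which 5 BRM peaks met. The widest of the further peaks measured 1825 and 1614 bp, and those of 1825, 1195 and 462 bp met BRM.

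The group with the most BRG1 peaks of the window lay inside PVT1, around starts 60.2 and 60.6 kb into the gene. It held 15 BRG1 peaks over 29.5 kb (127848947 to 127878492), with 6 BRM peaks and 1 SNF5 peak. Its widest BRG1 peak measured 4548 bp (127851111 to 127855658), ranked 93 of 51504 and was annotated as intron. It held BRM peaks of 948, 486 and 1163 bp and the SNF5 peak of 157 bp. The BRM peak of 1163 bp and the SNF5 peak were annotated as promoter, 179 and 781 bp from a TSS. Deposited distances gave shared starts at 127854726 (from 9 peaks) and 127855157 (from 13), both inside the BRG1 peak. The remaining 14 BRG1 peaks of the group were 349 to 1161 bp wide.

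The rest of PVT1 thinned out toward its end. Per 50 kb from the RefSeq start, BRG1 had 11, 15, 5, 4, 0, 1 and 0 peaks and BRM 5, 6, 3, 1, 0, 1 and 0. The second SNF5 peak of the gene, 228 bp in an intron (127898814 to 127899041), fell on a BRG1 peak of 1276 bp and a BRM peak of 313 bp, 163 kb from the MYC start. A BRG1 peak of 2112 bp named for TMEM75, which RefSeq lists as LINC02912, lay 214 kb from the MYC start and met a BRM peak of 347 bp. The last peaks inside the gene were a BRG1 peak of 837 bp holding a BRM peak of 479 bp, 342 kb from the MYC start. BRM met 14 of the 30 BRG1 peaks named for PVT1 and SNF5 met 2. Over all BRG1 peaks 35.7% met BRM and 9.58% met SNF5. Of the 30, 28 were intron peaks, and for intron peaks in the rest of the list the shares were 17.8% and 2.03%. These shares were not tested against each other.

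**Figure D2:**
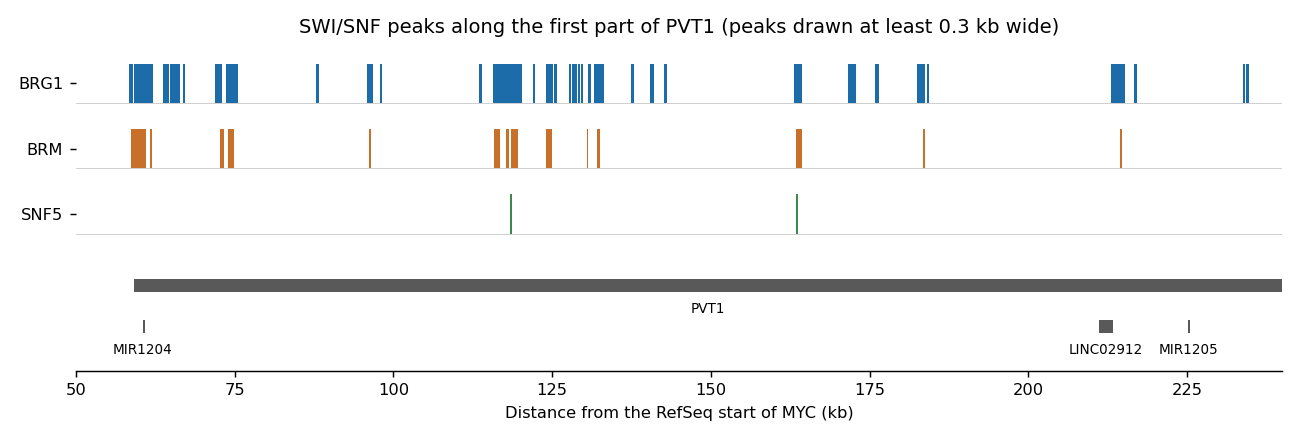
Peaks of BRG1, BRM and SNF5 (rows) along the first part of PVT1, by distance in kb from the RefSeq start of MYC, with RefSeq spans below; peaks narrower than 0.3 kb are drawn 0.3 kb wide. The 9 BRG1 peaks at the promoter and the 15 BRG1 peaks around the inner start stand apart, and SNF5 has 2 peaks.

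Upstream, the noncoding RNA genes between MYC and LRATD2 carried more BRG1 than BRM peaks and few SNF5 peaks. This is also the order of the whole lists, which hold 51504 BRG1, 22157 BRM and 6489 SNF5 peaks. CASC8 was named by 7 BRG1, 4 BRM and 0 SNF5 peaks. Its BRG1 peak of 3665 bp (127477528 to 127481192, intron), near the MYC-side end of the gene, held 3 BRM peaks of 381, 317 and 481 bp. CCAT2 was named by 4 BRG1, 2 BRM and 1 SNF5 peak. At its promoter a BRG1 peak of 1971 bp (127400262 to 127402232) covered the whole RefSeq gene of 1752 bp and took in the BRM peak (789 bp) and the SNF5 peak (394 bp) of this gene. POU5F1B, a retrogene of the stem cell factor POU5F1 (OCT4), was named by no peak. Its nearest BRG1, BRM and SNF5 peaks lay 9.18, 12.1 and 12.1 kb away.

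Farther out, the group with the second most BRG1 peaks of the window lay around CCAT1, a noncoding RNA gene first described in colon cancer. It held 10 BRG1 peaks over 20.1 kb (127205686 to 127225799), 510 to 530 kb before the MYC start, with widths of 341 to 1859 bp. BRM had 1 peak of 348 bp in it and SNF5 none. The lists name CASC19 for these 10 and for 1 other BRG1 peak, but none of the 11 touched the RefSeq span of CASC19 and 5 touched that of CCAT1. PCAT1, a noncoding RNA gene raised in prostate cancer, was named by 12 BRG1, 5 BRM and 1 SNF5 peak, none of which touched its RefSeq span. Of its BRG1 peaks, 8 lay 849 to 911 kb before the MYC start, and the deposited distances place an annotated start of PCAT1 there, at 126847052, outside the RefSeq span. The other 4 formed a group 693 to 700 kb before the MYC start. Its first peak of 1071 bp (127035014 to 127036084) held a BRM peak of 350 bp and the SNF5 peak of 157 bp, the single distal SNF5 peak of the window.

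LRATD2, named FAM84B or by neighbouring transcripts in the lists, had the other BRG1 peak of the window that met 4 SNF5 peaks. Its BRG1 promoter peak of 3583 bp (126555242 to 126558824) took in BRM over 3154 bp and SNF5 at 4 places, over 340, 205, 151 and 665 bp. It covered the RefSeq end of the gene at 126558478 and lay 1176610 to 1180192 bp before the MYC start.

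By name, FAM84B had 1 peak in each list, and AC084116.4 had 1 BRG1, 1 BRM and 2 SNF5 peaks. The BRG1 peak named FAM84B (126546618 to 126548052, 1435 bp, distal) met the BRM peak of that name, of 511 bp.

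The remaining names had few peaks. AC018714.1 had 3 BRG1 and 2 BRM peaks, AC083923.1 2 and 1, MIR1208 3 and 1, and TMEM75 2 and 1. AC083923.2 had 1 BRG1 and 1 SNF5 peak. LINC00824 was named by 4 BRG1 peaks, PVT1_3 by 3, RN7SKP226 and MIR1205 by 2 each, and RNU6-869P, AC084116.3, PRNCR1 and CASC21 by 1 each, with no peak of the other subunits. MIR1204, MIR1206 and MIR1207 were named by no peak.

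**Figure D3:**
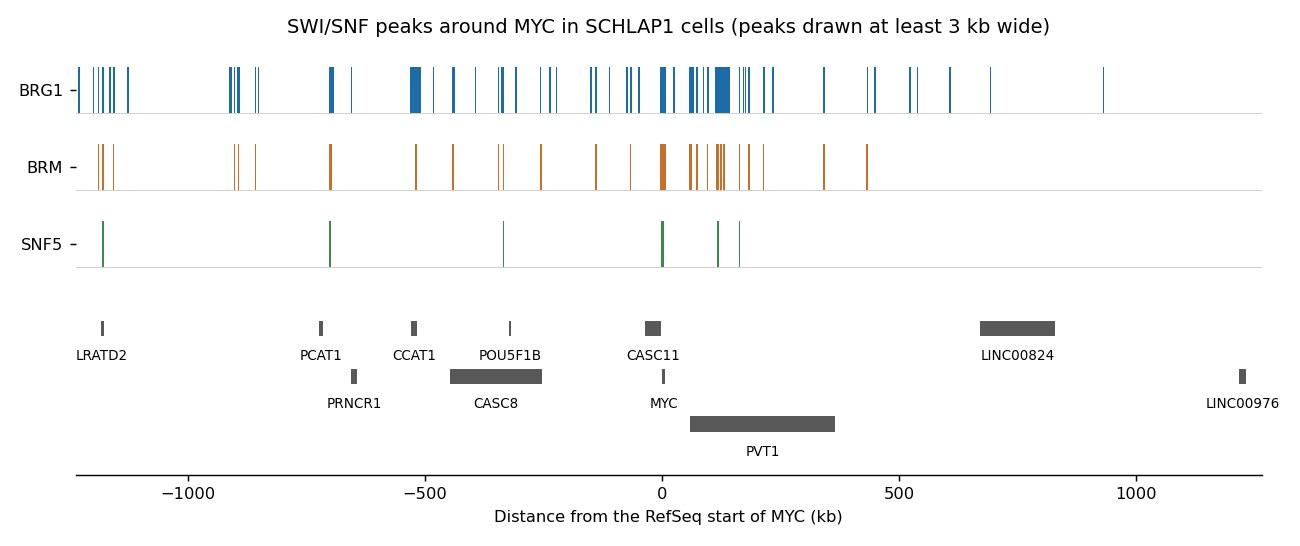
Peaks of BRG1, BRM and SNF5 (rows) over the whole window, by distance in kb from the RefSeq start of MYC, with RefSeq gene spans below; peaks narrower than 3 kb are drawn 3 kb wide. The 12 SNF5 peaks stand at 6 places, all with BRG1 and BRM peaks, and the right end of the window is nearly empty.

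Peaks lay evenly before and after MYC in number but not in distance. By their middles, before the MYC start lay 54 BRG1, 20 BRM and 7 SNF5 peaks, and after it 53, 21 and 5. Within 250 kb the counts were 12, 4 and 1 before and 43, 19 and 5 after. The downstream end was sparse. BRG1 had no peak in the last 334 kb of the window, BRM none in the last 831 kb and SNF5 none in the last 1101 kb. Joined over gaps of at most 10 kb, the 107 BRG1 peaks made 37 groups, of which 16 were single peaks and 7 had at least 5 peaks. BRM fell in 19 of the groups and SNF5 in 6. The 3 groups with most BRG1 peaks, inside PVT1, around CCAT1 and at the PVT1 promoter, held 34 BRG1, 12 BRM and 1 SNF5 peak.

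Promoter peaks were a smaller share in the window for the motor subunits. Promoters, within 1000 bp of a TSS by the deposited annotation, took 14.0% of its BRG1 peaks (15 of 107; exact 95% binomial interval 8.06 to 22.1), against 37.3% over the whole list. For BRM the share was 17.1% (7 of 41; 7.15 to 32.1), against 62.8%. For SNF5 it was 75% (9 of 12; 42.8 to 94.5), against 81.3%. The intervals treat peaks as trials and cover counting error only. Introns held 52 and distal sequence 37 of the BRG1 peaks. The window was chosen as a stretch with few protein-coding genes, and its promoter shares were not set beside those of other such windows.

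Every SNF5 and BRM peak of the window met a BRG1 peak. BRG1 peaks met 12 of 12 SNF5 peaks (interval 73.5 to 100%), against 96.1% of the whole list, and 41 of 41 BRM peaks (91.4 to 100%), against 92.2%. BRM peaks met 12 of 12 SNF5 peaks, against 91.9%. The 12 SNF5 peaks fell on only 6 BRG1 peaks, so they are not separate sites, although the interval takes them as such. SNF5 peaks met 6 of 41 BRM peaks (14.6%; 5.57 to 29.2), against 21.9%. Of BRG1 peaks, 36 of 107 met BRM (33.6%; 24.8 to 43.4) and 6 met SNF5 (5.61%; 2.09 to 11.8), against the 35.7% and 9.58% given above. Away from promoters, 29 of the 92 BRG1 peaks met BRM (31.5%; 22.2 to 42.0), against 20.2% (19.8 to 20.6) in the rest of the list, and 3 met SNF5 (3.26%; 0.678 to 9.23), against 2.69%. The higher BRM share lay in introns, where 19 of 52 met BRM (36.5%; 23.6 to 51), against 17.8%. In distal sequence it was 9 of 37 (24.3%; 11.8 to 41.2), against 22.8%. At promoters the share was lower, with 7 of 15 (46.7%; 21.3 to 73.4), against 61.6%. These shares were not tested against each other.

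Where all subunits met, BRG1 peaks were wide. The 6 BRG1 peaks that met BRM and SNF5 had a median width of 2777 bp (1071 to 6691), the 30 that met BRM alone 983 bp (347 to 3665), and the 71 that met neither 538 bp (331 to 1859). In the rest of the list the medians were 1606, 1038 and 510 bp, in the same order. Overlap needed only 1 shared bp, which a wider peak reaches more easily, and this was not set apart. Over all its peaks, the window's median widths were 616 bp (BRG1), 483 bp (BRM) and 252.5 bp (SNF5), against 667, 547 and 212 bp in the rest of the lists. Peaks of at least 3 kb were 4 of the 107 BRG1 peaks (3.74%), against 1.29% of the whole list, and they lay at MYC (6691 bp), in PVT1 (4548 bp), in CASC8 (3665 bp) and at LRATD2 (3583 bp). Of the 10 widest, the other 6 were those of PVT1 (2422 and 1825 bp), TMEM75 (2112 bp), CASC11 (2053 bp), CCAT2 (1971 bp) and CASC19 (1859 bp). Peaks covered 4.00% of the window for BRG1, 1.24% for BRM and 0.18% for SNF5, and the MYC peak alone made up 6.69% of the BRG1 length.

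**Figure D4:**
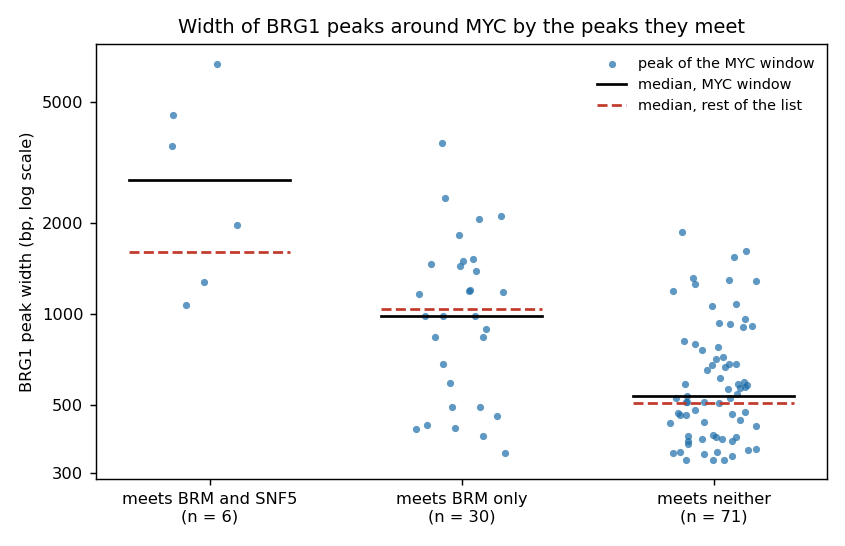
Width of each BRG1 peak of the window in bp (log axis) by the peaks it meets, with medians of the window (solid lines) and of the rest of the BRG1 list (dashed lines). The medians are 2777, 983 and 538 bp in the window and 1606, 1038 and 510 bp in the rest of the list.

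For a stretch with 3 protein-coding genes the window was rich in peaks. It held 107 BRG1 peaks, against a median of 31 (quartiles 10 to 63) in 1200 other windows of 2.5 Mb laid end to end, of which 87 (7.25%) had at least as many. It held 41 BRM peaks, against a median of 9, with 152 windows (12.7%) at or above it. For SNF5 it held 12, against a median of 2, with 156 windows (13.0%) at or above it. On chromosome 8 the same held for 1, 2 and 3 of 56 windows. The 19 windows from its start to 47.5 Mb had no SNF5 peak and 0 to 28 BRG1 peaks (median 8), and the other 37 had a median of 29 BRG1, 8 BRM and 2 SNF5 peaks. Over all chromosomes 391 of the 1200 windows had no SNF5 peak and 103 no BRG1 peak. Long runs without SNF5 peaks also lay on other chromosomes, among them 3, 18 and 22. Such runs, and windows of unassembled sequence, were kept in the comparison, so its medians and shares are not those of like sequence alone. The lists hold no measure of DNA copy number, and counts were not adjusted for it. Of 193 windows with at most 3 protein-coding genes, a subset added after seeing the data, none reached the window around MYC for any subunit. Their highest counts were 52 for BRG1, 10 for BRM and 5 for SNF5, and their medians 2, 0 and 0. In the 125 of them with at least 1 protein-coding gene the medians were 4, 1 and 0, and the highest counts were the same. Some of these 125, such as the first windows of chromosomes 13, 14 and 21, still had no peak in any list. RefSeq gave these windows 2, 2 and 1 protein-coding genes, although the windows next to them had 0 genes and no peaks. Whether such genes lie on the assembled chromosomes was not checked, so gene counts of windows, and the sets of 193 and 125, may be off. The window around MYC was chosen with its peaks known, so its rank is a description.

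**Figure D5:**
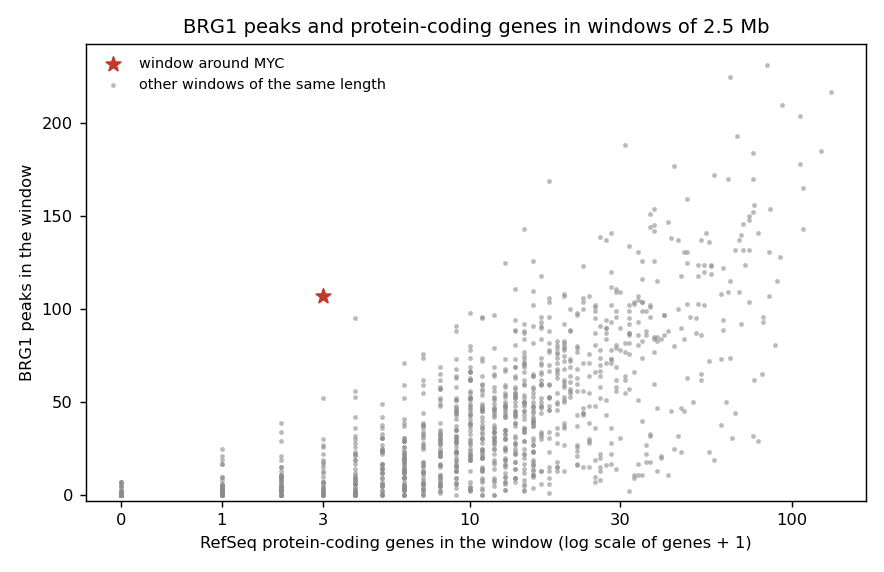
BRG1 peaks per window of 2.5 Mb against the number of RefSeq protein-coding genes in it (log axis of genes + 1), for the window around MYC (star) and 1200 other windows (points). The star stands at 3 genes and 107 peaks, above all other windows with at most 3 genes, whose highest count is 52. Gene counts were not checked for windows of unassembled sequence.

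A list of 13 genes held MYC, its paralogues, partners and antagonists. Of the 12 other than MYC, BRG1 peaks named 11, BRM peaks 11 and SNF5 peaks 7, against the 63.4%, 49.5% and 19.6% of all protein-coding genes given above. After MYC, the widest BRG1 peaks were those of MNT (3810 bp), MXI1 (3615 bp) and MGA (2620 bp), repressors that also pair with MAX, and MAX itself had one of 1501 bp. Of the paralogues, MYCN had a BRG1 peak of 1417 bp and MYCL one of 1267 bp, both without SNF5, and MXD4 was named by no peak. Of 20 textbook targets of MYC, BRG1 named 19, BRM 18 and SNF5 9. PTMA (5349 bp), TFAP4 (3053 bp), LDHA, which makes lactate (2955 bp), and NPM1, a nucleolar protein (2873 bp), had the widest BRG1 peaks. TERT, the telomerase catalytic subunit, had none. Both lists were written with earlier results of these data known, and promoters of expressed genes were not set apart from others.

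No peak lay across a bound of the window, and the BRG1 peaks on both sides of each bound were over 10 kb apart. At the lower bound the first BRG1 peaks inside were 1252 and 1083 bp wide, 5.85 and 36.4 kb from the bound, and the nearest outside 470 and 500 bp, at 45.3 and 46.0 kb. At the upper bound the last BRG1 peaks inside, of 512 and 711 bp, lay 334 and 571 kb away, and those outside, of 385 and 451 bp, lay 5.00 and 627 kb away. For BRM the peaks at the lower bound were 511 and 3154 bp wide inside (47.0 and 55.6 kb) and 523 and 685 bp outside (66.2 and 835 kb). At the upper bound they were 884 and 479 bp wide inside (831 and 923 kb) and 525 and 317 bp outside (708 and 925 kb). For SNF5 they were 340 and 205 bp wide inside the lower bound (56.2 and 56.8 kb) and 383 and 170 bp outside it, at TRIB1 (1068 and 1069 kb). At the upper bound SNF5 had peaks of 228 and 157 bp inside (1101 and 1146 kb) and of 155 and 151 bp outside (940 and 992 kb).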

How the data were processed

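The authors deposited 1 filtered and annotated peak list per subunit, which gives for each peak its start, end, width, place, nearest TSS and distance, with no score, ratio or count, per the file headers. The submitters' processing notes name hg38, MACS2, Bowtie2, deepTools 2.5.2 and SAMtools, with no role or order. How peaks were thresholded and filtered, against which input, and whether the 2 replicates were pooled is not given in the sources used here, and counts and widths depend on these choices. The lists have 1 number missing among the BRG1 peaks of the window and none for BRM or SNF5. The other 18 samples (histone marks and input chromatin) were not analysed.

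Peaks that touch the window, or whose nearest TSS is MYC, CASC11 or PVT1, were taken. Overlap meant at least 1 shared bp. Intervals are exact (Clopper-Pearson) at 95%. Gene spans are those of RefSeq GRCh38.p14, in a table used here without strand, so starts were taken as the end of a span that the deposited distances point to. Peaks were counted by their middle in the other windows of 2.5 Mb. The members and gene lists were chosen with earlier results of these data known. The rule for naming took every peak of the 3 genes (the narrower ones of PVT1 are given by range), every name in the window, the 10 widest BRG1 peaks, the 3 groups with most peaks, the peaks next to each bound, and, for the MYC network and target lists, at most 4 members by widest BRG1 peak and at most 2 that no peak names. MAX, MYCN and MYCL were named beyond this rule, after their values were seen. Sequence of this chromosome is not printed here. The routines were tested on simulated data. Values were computed in Python 3.11.15 (scipy 1.17.1, pandas 2.3.3, numpy 2.4.6) and drawn with matplotlib 3.10.9.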

Additional observations from a re-analysis of the deposited data

How the results depend on the processing

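No paired analysis was possible because each subunit has 1 list that carries no replicate, and for the same reason no replicate could be left out. Of 116 recomputed values for 34 results, 78 stayed within the counting interval or, for counts, within 1.5 times, and 38 moved. That interval is wide for small sets, so the label depends on their size. With as many of the widest peaks as the SNF5 list holds, SNF5 peaks that met BRG1 fell from 100 to 83.3% and counted as staying. BRM peaks that met BRG1 fell from 100 to 90.9% and counted as moved. Counts that fell with fewer peaks or a narrower window did so by construction; for the other moved values below the cause was not tested. With the wider 50% of each list the window held 52 BRG1, 17 BRM and 7 SNF5 peaks, promoter shares were 25% for BRG1 and 41.2% for BRM, and MYC was named by 2 BRG1 and 1 BRM peak and PVT1 by 15 BRG1, 9 BRM and 1 SNF5 peak. With as many of the widest peaks as the SNF5 list holds, it held 13 BRG1 and 11 BRM peaks. BRM then met 61.5% and SNF5 30.8% of BRG1 peaks, and BRG1 met 90.9% and SNF5 36.4% of BRM peaks. MYC was then named by 1 BRG1 and 1 BRM peak, CASC11 by 1 BRG1 peak and PVT1 by 4 BRG1 and 5 BRM peaks. Within 500 kb of the MYC start lay 71 BRG1 and 7 SNF5 peaks. With reciprocal overlap of 50%, BRM met 14.0% and SNF5 0% of BRG1 peaks, BRG1 met 36.6% and SNF5 2.44% of BRM peaks, and BRG1 met 0% and BRM 8.33% of SNF5 peaks. Within 1 kb BRM met 43.9% of BRG1 peaks. Within 3 kb of a TSS lay 28.0% of BRG1 and 43.9% of BRM peaks, and 8.33% of SNF5 peaks covered an end of a RefSeq gene. By RefSeq span and 1 kb around it, CASC11 had 2 BRG1 peaks and 1 SNF5 peak. The share of windows with at least as many peaks was 0% for each subunit among those with at most 3 protein-coding genes, an alternative added after seeing the data. Depth is unknown, so missing peaks set no limit on binding.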

Other observations

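Among the 193 windows with at most 3 protein-coding genes, the next in BRG1 peaks after the window around MYC lay on chromosome 17 (70000001 to 72500000). It holds SOX9, a transcription factor gene of epithelial progenitors, with KCNJ2 and KCNJ16, and had 52 BRG1, 7 BRM and 0 SNF5 peaks. Windows with NRIP1 and USP25 on chromosome 21 (39 BRG1, 5 BRM and 1 SNF5 peak) and with NAALADL2 and TBL1XR1 on chromosome 3 (34, 8 and 1) followed.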
